A study of Mus musculus with 12 samples.

Results

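Late activation of CD4 T cells that carry extra PP2Ac is described here: 2 arrays taken after 24 h of stimulation were compared with 2 taken after 6 h. PP2Ac is the catalytic subunit of protein phosphatase 2A, and its gene is Ppp2ca. These 4 arrays are part of a series of 12, in which naive CD4 T cells of C57BL/6 mice, WT or PP2Ac transgenic, were collected at 0, 6 and 24 h with 2 arrays per group. At 6 and 24 h the cells of both genotypes had been cultured with soluble anti-CD3 at 0.25 ug/mL plus anti-CD28 at 0.5 ug/mL in RPMI with serum, on plates coated with a goat antibody that binds hamster immunoglobulin. Members of the comparison were all 23410 probe sets with a gene symbol, of 28853 in the table, and no member was chosen by its measured value. The 4 WT arrays of the same times served as the background. The promoter that drives the transgene and the number of founder lines are not given in the sources used here. Nor do the labels say whether the 2 arrays of a group came from separate mice or cultures, so p-values measure only the spread between these samples, which may be technical.

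A T cell that is triggered through its antigen receptor and CD28 first transcribes immediate response factors of the AP-1, EGR and NR4A families together with feedback inhibitors of the signal. It then grows, which needs new ribosomes, chaperones and translation factors, and afterwards enters the cell cycle. At the passage into S phase, cyclin E with CDK2 and the release of E2F factors from RB proteins switch on genes for DNA replication. The genes of mitosis follow under MYBL2 and FOXM1. The 6 h and 24 h arrays therefore sample an early and a late stage of this course.

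Values are log2 expression, quantile normalised between arrays. A difference is the 24 h mean minus the 6 h mean with the standard error (SE) of limma's fit over all 12 arrays, and n is 2 arrays against 2 throughout. Adjusted p-values are limma's with Benjamini-Hochberg adjustment over all probe sets tested, and a probe set was called below 0.05. One array of each pair has the mark Rep in its title. Where 2 values are given for a group, the first is the unmarked array and the second the array marked Rep.

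Between 6 h and 24 h the transgenic cells changed most in genes of DNA replication and cell division, which rose, while most genes of ribosome assembly and some factors of the early response fell. In all, 3348 probe sets (14.3%) were called: 1846 higher at 24 h (7.89%) and 1502 lower (6.42%). Large changes ran mostly upward, since 533 called probe sets rose at least 2-fold and 114 at least 4-fold, against 153 and 8 that fell as far. In each of the 3348, both arrays of one time lay beyond both arrays of the other. The calls rest on the same values, so this adds no separate support. With 1 probe set per gene, 25.8% of all genes stood so upward and 29.3% downward. Kept to 1 probe set per gene, which is the form used for the gene lists, 8.47% of 19938 genes were called higher and 6.57% lower, and the median difference of all of them was -0.02. The counts depended on single arrays. Without the unmarked 24 h array 883 probe sets were called higher and 526 lower, and without the 6 h array marked Rep 829 and 555. Without the 24 h array marked Rep the counts were 1509 and 972, and without the unmarked 6 h array 1345 and 825.

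The T cell markers were high on all 4 arrays, with a median over 8 genes of 13.24 and 13.04 at 6 h and 13.32 and 13.35 at 24 h. Of these, Cd3d, Cd3g and Cd4 were called higher and no marker lower. Transcripts of other cell types were also present and some moved with time. The median of 9 B cell markers was 8.74 and 9.0 at 6 h and 10.18 and 9.85 at 24 h, and it had been 10.02 and 10.01 at 0 h. Cd22, Cd79a, Cd79b and Ebf1 were called higher and Cr2 lower. The strongest was Cd22, an inhibitory B cell receptor, at 8.15 and 7.82 against 10.85 and 10.23 (difference 2.56, SE 0.27, adjusted p = 0.00084). In WT the B cell list had a median difference of 0.68, against 1.13 in the transgenic cells. Of 14 neutrophil markers none was called (median difference -0.76), of 8 NK cell markers none (-0.59) and of 12 monocyte and macrophage markers none (-0.07). The spread in that fit includes the WT arrays, which stood 3.57 apart at 24 h in the median over the neutrophil list, whose median SE was 1.45. In the fit of the 4 transgenic arrays 2 neutrophil, 2 NK cell and 2 monocyte markers were called lower and 1 monocyte marker higher. The CD8 T cell genes Cd8a and Cd8b1 had list medians of 10.23 and 9.21 at 6 h and 11.02 and 10.18 at 24 h. They differed by 1.15 and 0.61 and were called only with the mark Rep as a block (adjusted p = 0.030 and 0.0089). Each of these calls but Cd22 and Cd3d was lost when at least 1 of the 4 arrays was left out, and the B cell count was lowest, 1, without the unmarked 6 h array. Itgax and Zbtb46 of 8 dendritic cell markers and Slc4a1 and Kel of 4 erythroid markers fell, of which only Slc4a1 kept its call without each array. Of all these markers only Mrc1, Clec9a and Klre1 lay below the lower quartile of the arrays, 5.81, at both times. The part of other cells in the differences below was not tested. Fewer cells of a type and less RNA per cell cannot be told apart in such samples.

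**Figure D1:**
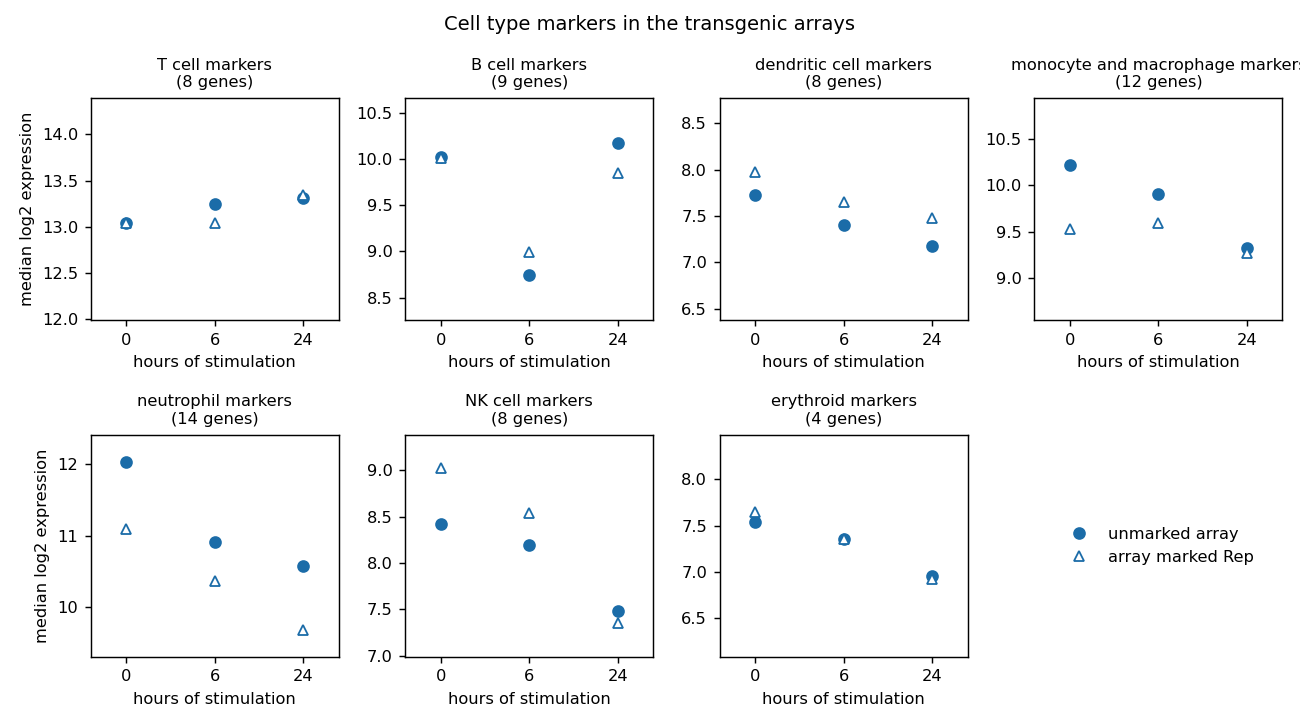
Median log2 expression over each list of cell type markers (vertical axis) against hours of stimulation (horizontal axis, evenly spaced) in the transgenic arrays; filled circles are unmarked arrays and open triangles arrays marked Rep. The 8 T cell markers stay near 13, and the 9 B cell markers dip at 6 h and return at 24 h. The monocyte, NK cell and erythroid medians are lowest on both 24 h arrays. The neutrophil and dendritic cell medians are lowest at 24 h among arrays of the same mark, but their 6 h and 24 h arrays overlap.

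The largest rises belonged mainly to genes of S phase and chromosome segregation. Tcf19, a gene named as a transcription factor and linked to the start of S phase, read 7.88 and 7.67 at 6 h and 12.39 and 11.38 at 24 h. This was the largest rise among named genes with 1 probe set per gene, 17.3-fold (difference 4.11, SE 0.31, adjusted p = 0.00029), and the groups stood far apart. At 0 h Tcf19 had read 9.49 and 9.44, so its 6 h level was the lowest of the 3 times. Dtl, the adaptor by which a ubiquitin ligase removes the licensing factor CDT1, went from 7.88 and 7.86 to 11.84 and 11.17 (difference 3.64, SE 0.27). Rrm2, the small subunit of ribonucleotide reductase, went from 8.99 and 8.54 to 12.86 and 11.59 (difference 3.46, SE 0.44). The arrays of the 2 times did not overlap for either gene, and the 24 h arrays differed more than the 6 h arrays did. Esco2 (cohesin acetylation), Kntc1 and Cenpk (kinetochore), Ncapg and Ncapg2 (condensin), Stil (centriole duplication), Mastl (the Greatwall kinase), Chek1 (checkpoint kinase) and Aurkb (Aurora B) rose by 2.86 to 3.33. Ncapg and Aurkb lost their calls without the 6 h array marked Rep, and Aurkb also without the unmarked 24 h array. Itih5, a matrix protein of the inter-alpha-trypsin inhibitor family and the one among the 15 largest rises with no known place in the cell cycle, read 6.92 and 7.14 at 6 h and 10.05 and 10.53 at 24 h (difference 3.26, SE 0.28). It differed from the others also in that the array marked Rep was the higher one at 24 h.

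**Figure D2:**
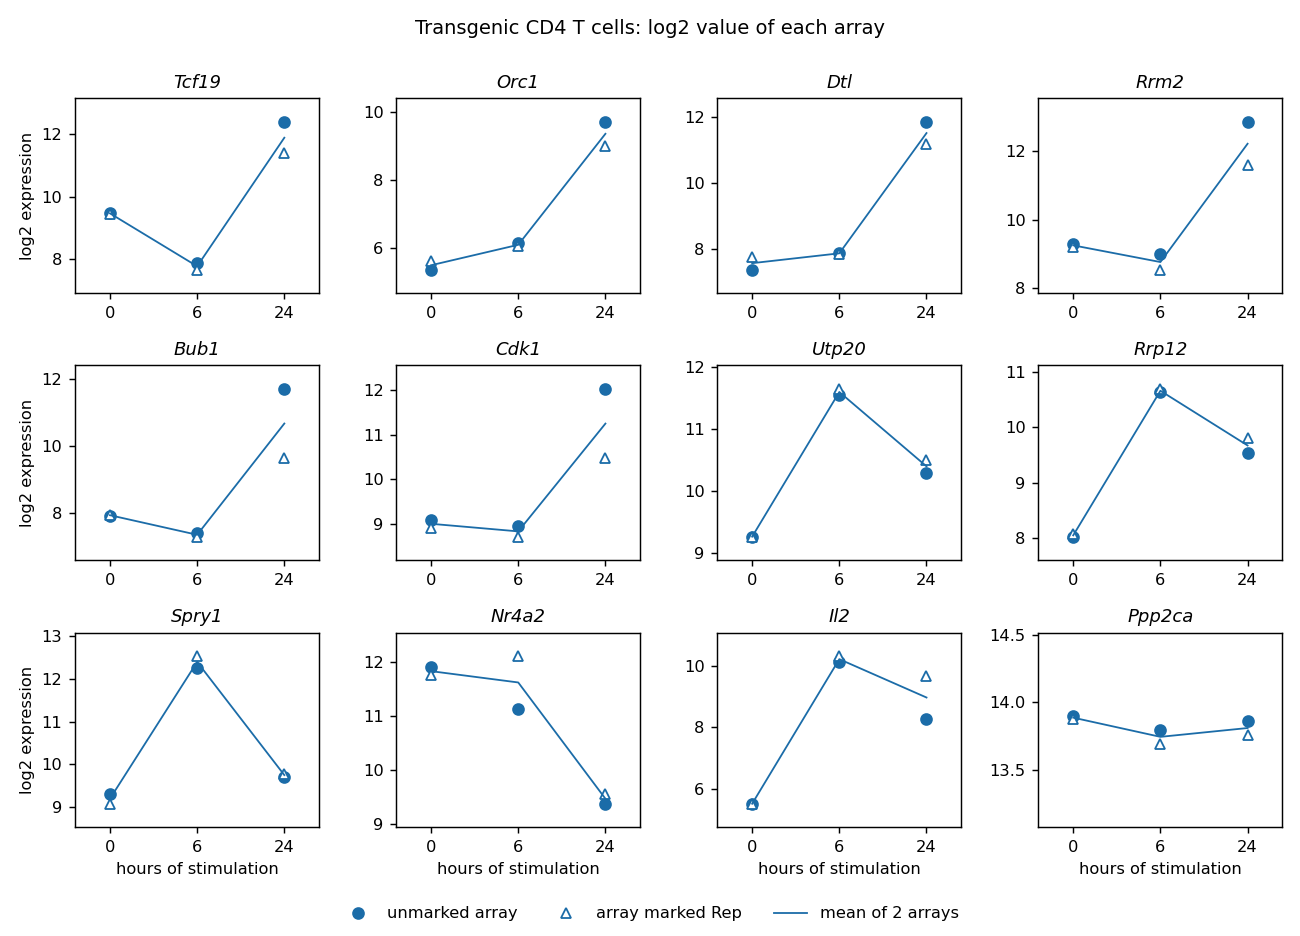
Log2 expression (vertical axis) of 12 genes against hours of stimulation (horizontal axis, evenly spaced) in the transgenic cells; filled circles are unmarked arrays, open triangles arrays marked Rep, and lines join the means of 2 arrays. Tcf19, Orc1, Dtl, Rrm2, Bub1 and Cdk1 are highest at 24 h, Utp20, Rrp12, Spry1 and Il2 are highest at 6 h, Nr4a2 is lowest at 24 h, and Ppp2ca stays between 13.69 and 13.90.

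DNA replication moved nearly as a whole. Of 42 genes of origin licensing and the replication fork, 39 were called higher and none lower, beside 8.47% of all genes, and the list's median difference was 1.38. Origin recognition was led by Orc1, which loads the helicase onto origins: it read 6.13 and 6.05 at 6 h and 9.70 and 9.01 at 24 h (difference 3.26, SE 0.23, adjusted p = 0.00029). Of the helicase, Mcm3 (1.85), Mcm4 (1.41), Mcm5 (1.26), Mcm7 (1.47), Mcm2 (1.14), Mcm6 (0.94) and Mcm10 (2.75), which helps to activate it, all rose. Mcm4 showed how tight the replicates could be, with 11.15 and 11.11 against 12.65 and 12.43. The loading factors Cdc6 (2.54) and Cdt1 (0.93), the helicase partner Cdc45 (2.61), the primases Prim1 and Prim2, the polymerases Pola1, Pole and Pole2, the ligase Lig1 (2.25) and the histone chaperones Chaf1a (2.42) and Chaf1b (2.12) rose as well. The arrays did not overlap for 41 of the 42, against 25.8% of all genes in that direction. When each of the 4 arrays was left out in turn, 34 to 39 of those 39 were called again.

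Cyclin and E2F genes, which act before replication, rose less evenly. Of 24 genes 16 were called higher and 1 lower (median 0.88), beside 8.47% and 6.57% of all genes. Ccne1, a cyclin that drives the passage into S phase, read 9.08 and 8.43 at 6 h and 12.05 and 10.91 at 24 h (difference 2.73, SE 0.35, adjusted p = 0.0017). E2f1 went from 8.97 and 8.68 to 11.33 and 10.92 (difference 2.30, SE 0.16). Neither gene had overlapping arrays. Among E2F genes, the activators E2f1, E2f2 (2.18) and E2f3 (1.36) and the late repressors E2f7 (1.51) and E2f8 (2.71) rose, whereas E2f5, a repressor of resting cells, fell from 9.49 and 9.74 to 8.48 and 8.54 (difference -1.10, SE 0.12, adjusted p = 0.00084). E2f4 and E2f6 differed by -0.18 and -0.10 and were not called. Of the D cyclins Ccnd3 rose by 1.36, while Ccnd1 (-0.11) and Ccnd2 (-0.06) were not called. Of 6 CDK inhibitors only Cdkn2d was called, higher by 0.99. Cdkn2c, at 7.76 and 8.13 against 10.27 and 8.80, had an adjusted p of 0.063, or 0.035 with the mark Rep as a block. Without the unmarked 24 h array or without the 6 h array marked Rep, 6 of the 16 cyclin and E2F genes were called again and Cdkn2d was lost.

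Repair and checkpoint genes of S phase followed replication: 18 of 21 were called higher, beside 8.47% of all genes, and none lower. Their median was 1.93. Chek1, the kinase that slows forks under stress, had the smallest adjusted p of the list, 0.00023, at 8.24 and 8.23 against 11.34 and 10.93. The homologous recombination genes Brca1 (2.50), Brca2 (2.28), Bard1 (1.87), Palb2 (1.10), Rad54l (2.81) and Exo1 (2.56) and the Fanconi genes Fanca, Fancb, Fancd2, Fanci and Fancm all rose. The sensor kinase genes Atr (-0.27) and Atm (0.61) were not called. Atm rose in the fit with the mark Rep as a block, where its adjusted p was 0.0016. Between 12 and 17 of those 18 were called again when single arrays were left out.

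The nucleotide genes split. Of 27, 6 rose and 4 fell, beside 8.47% of all genes called higher and 6.57% lower. All 6 that rose serve deoxynucleotide supply: Rrm2, Rrm1 (1.75), Tyms (2.78), Tk1 (2.42), Dut (1.57) and Dtymk (0.69). Tyms, thymidylate synthase, read 8.58 and 8.40 at 6 h and 11.85 and 10.70 at 24 h. The 4 that fell make nucleotides or their precursors from the start: Cad and Umps of pyrimidine synthesis (-0.67 each), Impdh1 of guanine nucleotide synthesis (-0.60) and Ctps (-0.54). Cad read 12.03 and 11.93 at 6 h and 11.36 and 11.26 at 24 h, a fall with tight replicates (SE 0.10, adjusted p = 0.0034). Ctps was near the threshold (adjusted p = 0.0496) and was lost in 3 of the 4 fits that leave out an array, all but the one without the unmarked 24 h array, and Impdh1 without either unmarked array. Among 24 chromatin genes 8 rose and 1 fell. Those that rose include the maintenance methyltransferase Dnmt1 (1.57), its partner Uhrf1 (2.79), the remodeller Hells (2.82), the polycomb methyltransferase Ezh2 (0.94) and the 5-methylcytosine oxidase Tet1. Tet1 read 7.42 and 7.46 against 8.95 and 8.97. Kdm6b, the demethylase that removes the polycomb mark, fell from 12.59 and 12.84 to 11.39 and 11.67 (difference -1.18, SE 0.12). Of 14 histone and histone-handling genes 4 were called higher: Asf1b, H2bc3, Slbp and H4c4. H2bc3 and H4c4 were called in only 1 of the 4 fits that leave out an array, the one without the 24 h array marked Rep. Replication-dependent histone mRNAs have near-identical copies and mostly no poly(A) tail, so single members are uncertain on such arrays.

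Mitosis genes rose in both pairs of arrays, but by very different amounts. Of 47, 26 were called higher and none lower, beside 8.47% and 6.57% of all genes, with a median of 2.05. For 44 both 24 h arrays lay above both 6 h arrays, against 25.8% of all genes. Bub1, a kinase of the spindle checkpoint, read 7.42 and 7.30 at 6 h and 11.70 and 9.65 at 24 h (difference 3.32, SE 0.67, adjusted p = 0.012). Cdk1, the kinase that starts mitosis, read 8.94 and 8.70 against 12.03 and 10.47 (difference 2.43, SE 0.54, adjusted p = 0.017), and Mki67, the Ki-67 proliferation antigen, 9.53 and 9.55 against 12.47 and 10.72. The replicates of these 3 genes lay at most 0.24 apart at 6 h and 1.56 to 2.05 apart at 24 h, with the unmarked array higher. The same held for the list: at 24 h its members were higher on the unmarked array by a median of 1.86, and by more than 1 log2 unit in 40 of 47, whereas at 6 h the median gap was 0.02. The median difference was 2.95 in the unmarked pair and 1.13 in the pair marked Rep. For replication genes these medians were 1.59 and 1.25. In the WT arrays the corresponding 24 h gap for mitosis genes was 1.32. Mki67 had an adjusted p of 0.070, or 0.0088 with the mark Rep as a block. For some genes the pair marked Rep moved little: Ccnb2 (cyclin B2) read 9.73 and 9.69 at 6 h and 12.30 and 10.13 at 24 h, and Aurka (Aurora A) 8.89 and 8.66 against 10.90 and 8.99. Neither was called. The mitotic count rests on single arrays: it was 5 without the unmarked 24 h array, 43 without the 24 h array marked Rep, 8 without the unmarked 6 h array and 3 without the 6 h array marked Rep, and 38 in the block fit. Bub1 and Cdk1 were called in only 1 of those 4 fits, the one without the 24 h array marked Rep.

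**Figure D3:**
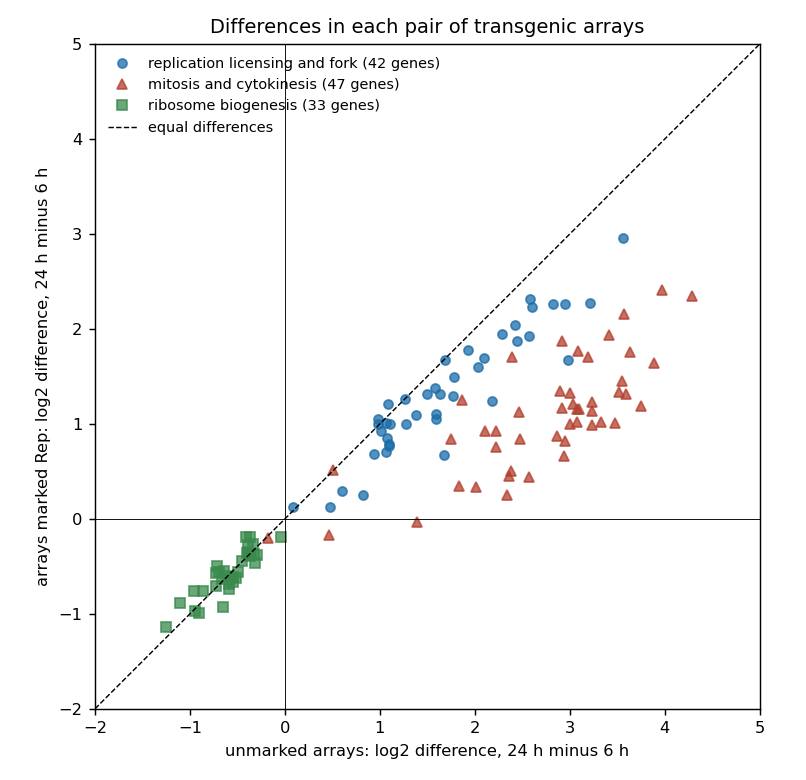
Log2 difference, 24 h minus 6 h, in the pair of unmarked transgenic arrays (horizontal axis) and in the pair marked Rep (vertical axis); each point is 1 gene, and the dashed line marks equal differences. Replication genes (circles) lie near the line with medians of 1.59 and 1.25, mitosis genes (triangles) lie well below it with medians of 2.95 and 1.13, and ribosome biogenesis genes (squares) lie on it below 0.

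Promoters are shown for the genes of largest rise and fall and for the leading members of the replication and mitosis lists, since known cell cycle factors read short words near the start site. Each sequence runs 5′ to 3′ from 250 bases before to 50 bases after the annotated start, taken from RefSeq on GRCm38.p6. Capitals mark matches on either strand to the words searched: TTTCCCGC, TTTGGCGC, TTTCGCGC and TTTGCCGC (E2F sites), CCAAT (the NF-Y box), TTTGAA and TTCGAA (the cell cycle homology region, CHR) and CACGTG (the E-box read by MYC and MAX). The promoters lie at chr17:35516775-35517074 (Tcf19, minus strand), chr4:108579204-108579503 (Orc1, plus strand), chr2:127831810-127832109 (Bub1, minus strand) and chr3:37639697-37639996 (Spry1, plus strand).
Tcf19: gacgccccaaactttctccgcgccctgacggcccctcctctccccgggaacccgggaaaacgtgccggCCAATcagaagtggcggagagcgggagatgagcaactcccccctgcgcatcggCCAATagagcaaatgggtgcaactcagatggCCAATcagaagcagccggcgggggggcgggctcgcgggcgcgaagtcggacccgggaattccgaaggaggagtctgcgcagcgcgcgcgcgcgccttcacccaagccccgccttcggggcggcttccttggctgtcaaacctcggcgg
Orc1: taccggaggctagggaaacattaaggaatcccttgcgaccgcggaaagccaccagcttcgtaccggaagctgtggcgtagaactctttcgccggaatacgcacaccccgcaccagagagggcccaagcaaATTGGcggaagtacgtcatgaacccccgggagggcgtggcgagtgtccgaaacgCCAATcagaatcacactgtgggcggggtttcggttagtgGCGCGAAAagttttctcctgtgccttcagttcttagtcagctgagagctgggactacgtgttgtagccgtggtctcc
Bub1: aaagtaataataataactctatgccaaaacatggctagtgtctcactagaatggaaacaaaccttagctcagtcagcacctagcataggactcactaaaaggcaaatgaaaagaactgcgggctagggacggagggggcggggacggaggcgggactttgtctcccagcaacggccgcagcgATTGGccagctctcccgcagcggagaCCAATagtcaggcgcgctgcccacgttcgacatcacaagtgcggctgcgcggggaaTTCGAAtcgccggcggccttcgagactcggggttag
Spry1: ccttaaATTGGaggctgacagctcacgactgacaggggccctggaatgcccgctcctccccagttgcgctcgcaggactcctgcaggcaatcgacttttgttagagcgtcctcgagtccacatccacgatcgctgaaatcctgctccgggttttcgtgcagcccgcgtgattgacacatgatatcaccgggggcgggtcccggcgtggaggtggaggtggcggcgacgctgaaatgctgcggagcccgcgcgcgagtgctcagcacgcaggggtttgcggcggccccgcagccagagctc
Orc1 holds an E2F word 27 to 20 bases before the start and CCAAT boxes on both strands. Bub1 holds 2 CCAAT boxes and a CHR word that begins 14 bases past the start. Tcf19 holds 3 CCAAT boxes, and Spry1 a single one. Over the lists, an E2F word stood in 13 of the 34 replication promoters in the table (38.2%) and in 2 of 38 mitosis promoters (5.26%), beside 2.32% of all 27025 genes with a promoter there. A CHR word stood in 27 of 38 mitosis promoters (71.1%) and 8 of 34 replication promoters (23.5%), beside 19.4% of all. CCAAT was found in 71.1% and 58.8% of them, beside 37.9%. These are matches of letters, not measured sites, and they say nothing of binding in these cells.

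The largest fall among named genes was that of Spry1, and the other large falls were of varied function. Spry1, a feedback inhibitor of RAS and ERK signalling, read 12.26 and 12.53 at 6 h and 9.72 and 9.79 at 24 h, a 6.23-fold fall (difference -2.64, SE 0.17, adjusted p = 0.00024). It had read 9.32 and 9.08 at 0 h, so the 24 h level was again close to that of resting cells. Of 14 Sprouty, Spred and DUSP genes 5 were called lower, beside 6.57% of all genes, and none higher. They were Spry1 and the phosphatase genes Dusp5 (-1.10), Dusp16 (-0.99), Dusp4 (-0.85) and Dusp1 (-0.64). Without the 6 h array marked Rep, Dusp1 and Dusp4 were not called, and Dusp4 was lost without either 24 h array as well. Txnrd3, a thioredoxin and glutathione reductase, read 10.64 and 10.83 against 8.02 and 8.18 (difference -2.63, SE 0.18). Rgs2, which switches off Gq signalling, fell by 1.81 on the log2 scale, and Mdn1, a giant ATPase of large ribosomal subunit maturation, fell by 1.74. Lonrf1, Plagl1, Cldn1, Utf1, Sult2b1, Hspa4l, Zbtb10 and Adamts6 differed by -1.97 to -1.60. Cldn1, a tight junction claudin, lost its call whichever array was left out. Slc4a1, the erythrocyte anion exchanger, is an erythroid marker and read 9.72 and 9.47 against 7.55 and 7.37, after 10.61 and 10.17 at 0 h.

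Early response factors fell in part. Of 22 genes 6 were called lower and 2 higher (median -0.38), beside 6.57% and 8.47% of all genes. Nr4a2, an orphan nuclear receptor, read 11.13 and 12.10 at 6 h and 9.38 and 9.56 at 24 h (difference -2.15, SE 0.37, adjusted p = 0.0060). The groups were apart although the 6 h arrays differed by nearly 1 unit. Nr4a1 (-0.72), the AP-1 members Fosb (-1.12) and Fosl2 (-1.09), Ier5 (-0.73) and Irf4 (-0.66) were also called lower. Egr3, in contrast, rose from 10.39 and 10.36 to 11.26 and 11.09 (difference 0.80, SE 0.16, adjusted p = 0.012), and Jund by 0.38. Egr1 at 11.10 and 11.23 against 11.69 and 11.68 was not called (adjusted p = 0.076, or 0.042 with the block). Myc at 13.44 and 13.49 against 12.99 and 13.13 was not called either (difference -0.41, SE 0.20). Without the unmarked 24 h array 2 of the 22 were called lower, and without the 6 h array marked Rep only 1, Nr4a2. Egr3 was called in only 1 of the 4 fits, without the 24 h array marked Rep, and Jund in the 2 without an unmarked array. Of 15 NF-kB genes 5 fell, among them Relb (-0.84), Nfkb2 (-0.48) and the feedback inhibitor Tnfaip3 (-0.70), and Cyld, a deubiquitinase that restrains the pathway, rose (0.50). Single falls and the Cyld rise in that list depended on the array left out, except Relb, which was called in all 4 such fits. Of 14 calcineurin and NFAT genes 2 were called higher and none lower, beside 8.47% of all genes called higher, and the list's median was 0.06. Ppp3cc, a calcineurin catalytic subunit, read 10.70 and 10.63 against 12.10 and 12.30 (difference 1.53, SE 0.11), and Nfatc2 rose by 1.01. Neither lost its call when an array was left out. The other 12 of those 14 were not called.

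Ribosome assembly genes fell together. Of 33 nucleolar and processing genes 22 were called lower and none higher, beside 6.57% of all genes, and the median was -0.59. Utp20, of the small subunit processome, read 11.55 and 11.64 at 6 h and 10.30 and 10.50 at 24 h (difference -1.19, SE 0.16, adjusted p = 0.0019). Polr1b, a subunit of RNA polymerase I, read 12.92 and 12.80 against 12.05 and 12.05 (difference -0.81, SE 0.13). The falls were small but even: the arrays did not overlap for 32 of 33, against 29.3% of all genes in that direction, and the medians of the 2 pairs of arrays were -0.55 and -0.56. They were partial as well, since Utp20 had read 9.27 on both arrays at 0 h. Rrp12 (-0.99), Noc3l (-0.96), Nop16 (-0.65), Ddx21 (-0.57) and the nucleolar protein gene Ncl (-0.39) were among those called. Npm1 (-0.35) and Fbl (-0.38), which encode abundant nucleolar proteins, were not. The count was 15 to 16 when single arrays were left out, and 26 with the block. Of 22 ribosomal protein genes, in contrast, only Rpl30 was called, lower by 0.51, and it lost its call whichever array was left out. Translation initiation factors (7 of 23 lower, none higher) and chaperones (7 of 21 lower, none higher) also fell. Hspa1a, the stress-induced HSP70, read 8.58 and 8.92 against 7.26 and 7.41 (difference -1.41, SE 0.17), and Eif5b and Eif2b3 fell by 0.71 and 0.70 on the log2 scale. Of those 7 and 7, only 3 initiation factors and 2 to 3 chaperones were called again in each of the fits without one array. Of 18 tRNA synthetases none was called (median -0.35), and with the block 6 were lower and 1 higher.

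**Figure D4:**
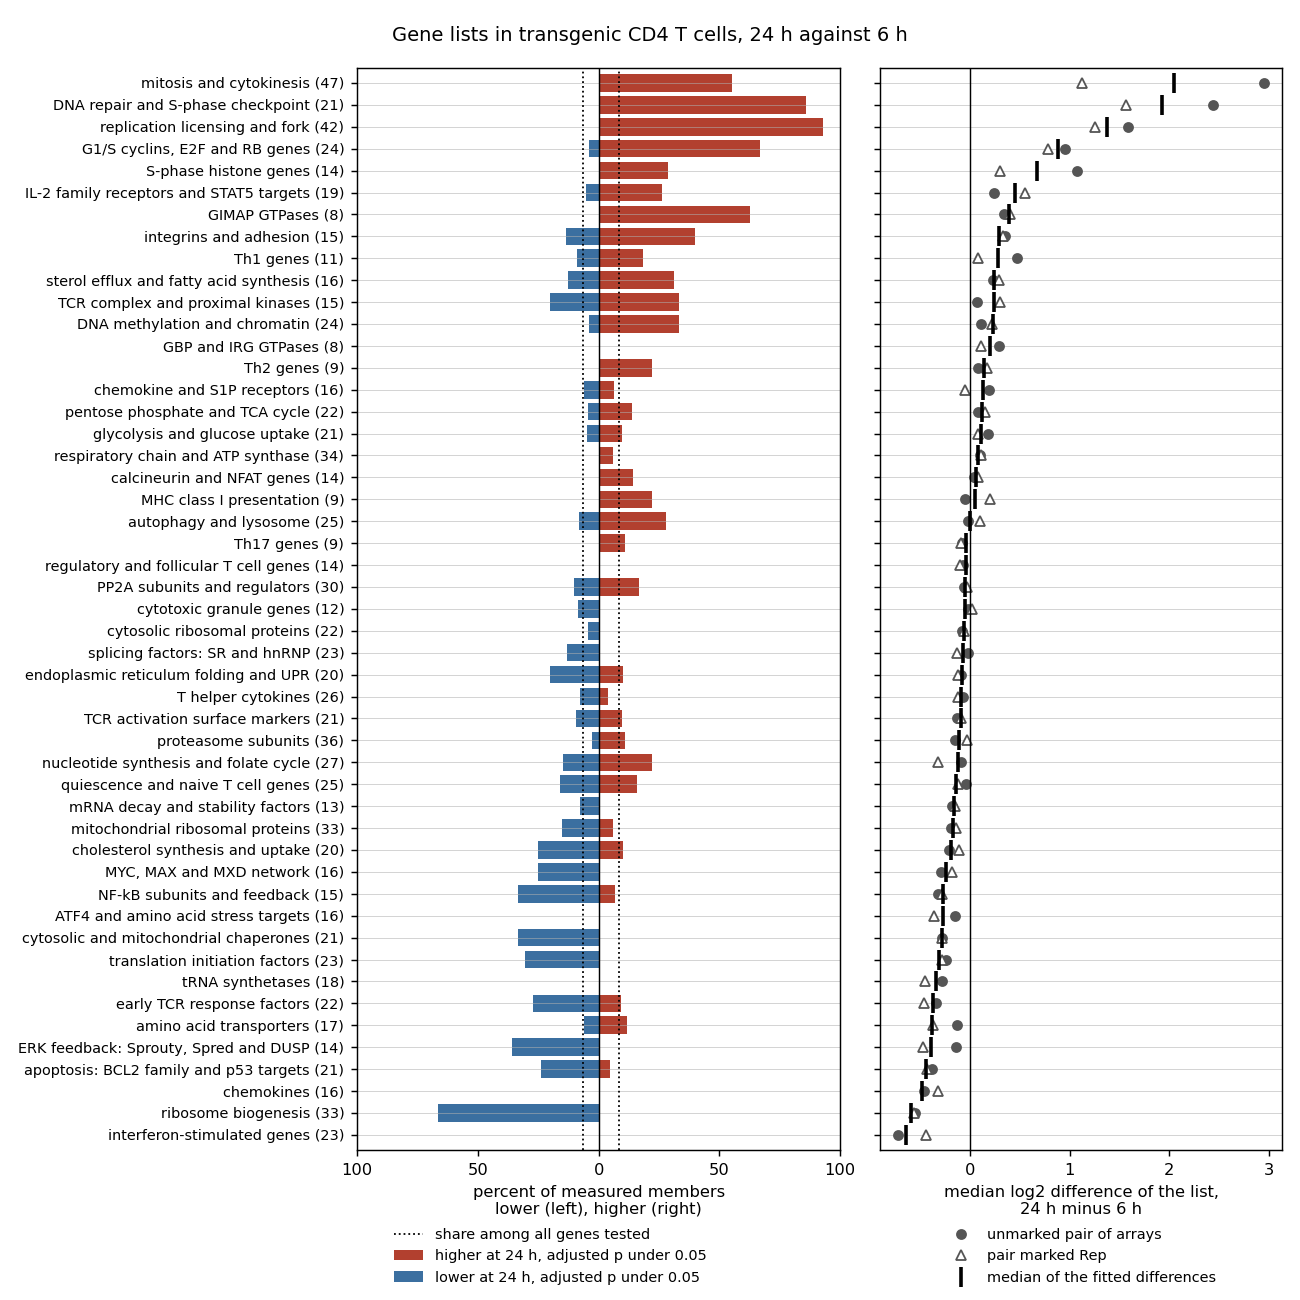
Left, percent of the measured members of each gene list (number in brackets) called lower (leftward bars) and higher (rightward bars) at 24 h than at 6 h in the transgenic cells, with dotted lines at the 6.57% and 8.47% of all genes; right, the list's median log2 difference from the fit (bar) and in each pair of arrays (circle, unmarked; triangle, marked Rep). Replication, repair and mitosis stand at the top with medians of 1.38 to 2.05, and ribosome biogenesis (-0.59) and interferon-stimulated genes (-0.65) at the bottom, the latter with no member called.

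The probe sets of Mir155 and of the host gene of the miR-17 to miR-92 cluster fell as well. Mir155 came from the rule for the largest falls, and the genes of the cluster, a MYC target, were chosen after their values had been seen. The probe sets read primary or precursor transcripts and not the mature arms. The mature arms, from RefSeq on GRCm38.p6, are shown because members of the cluster fall into seed families, with the seed (bases 2 to 8) in capitals. The Mir155 arm lies at chr16:84714143-84714165, and the cluster arms between chr14:115043684-115043706 and chr14:115044476-115044496, all on the plus strand.
miR-155-5p: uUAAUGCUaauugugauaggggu
miR-17-5p: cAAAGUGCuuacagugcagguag
miR-18a-5p: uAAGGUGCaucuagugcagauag
miR-19a-3p: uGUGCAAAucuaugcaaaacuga
miR-20a-5p: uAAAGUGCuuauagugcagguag
miR-19b-3p: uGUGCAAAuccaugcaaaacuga
miR-92a-3p: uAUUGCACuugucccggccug
Arms of miR-17 and miR-20a share the seed AAAGUGC and those of miR-19a and miR-19b the seed GUGCAAA. Mir155 read 7.77 and 8.11 at 0 h, 10.02 and 10.67 at 6 h and 8.43 and 8.89 at 24 h (24 h minus 6 h -1.69, SE 0.26, adjusted p = 0.0037). Mir17hg, the host transcript of the cluster, read 8.60 and 8.49 at 6 h and 7.54 and 7.55 at 24 h, which is its 0 h level of 7.64 and 7.56 (difference -0.999, SE 0.15, adjusted p = 0.0032). Both were higher at 6 h than at the 2 other times on every array. Along the cluster, Mir19b-1 (-1.15) and Mir20a (-0.61) were called lower, as was a probe set that names both Mir92-1 and the host (-1.02). Mir17 (-0.43), Mir18 (-0.62) and Mir19a (-0.63) had adjusted p-values of 0.31, 0.073 and 0.10. Over 298 probe sets named for single microRNA genes, 12 were called lower (4.03%) and 2 higher (0.671%), beside 6.42% and 7.89% of all probe sets. Mir15b, one of the 2, read 7.03 and 6.82 against 7.59 and 7.69, and it was called in only 1 of the fits without an array, that without the unmarked 6 h array.

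Signalling and effector genes of the T cell changed one by one. Among IL-2 family receptors and STAT5 targets 5 of 19 rose and 1 fell, beside 8.47% of all genes called higher and 6.57% lower. Il4ra, a chain of the IL-4 receptor, read 12.12 and 11.92 against 12.86 and 13.15 (difference 0.98, SE 0.11, adjusted p = 0.00091), and the feedback genes Socs2 (1.85) and Socs3 (1.09) and the receptor genes Il2rb (0.60) and Il21r (0.37) also rose. Il15ra fell by 1.04 on the log2 scale, a call lost without the unmarked 24 h array or without the 6 h array marked Rep. Il2ra, the high affinity IL-2 receptor chain, read 13.53 and 13.61 against 13.36 and 13.71 and was not called. The IL-12 receptor gene Il12rb1 had one of the clearest rises outside the cell cycle, from 9.65 and 9.19 to 11.74 and 11.77 (difference 2.34, SE 0.22, adjusted p = 0.00056). Il23r, for the IL-23 receptor of Th17 cells, read 6.58 and 7.05 against 7.33 and 7.53 (difference 0.61, SE 0.16, adjusted p = 0.034), a call kept only in the fit without the 6 h array marked Rep.

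Of 26 helper cytokine genes 1 was called higher and 2 lower. Among all genes 8.47% were called higher and 6.57% lower, so this list's share of calls did not stand out. Ltb rose by 0.56, and Fasl (-1.31) and Il6 (-1.23), the latter at 8.27 and 7.89 against 6.99 and 6.70, fell. Il6 was lost whichever array was left out, and Ltb without either array marked Rep. Il2 itself read 10.11 and 10.31 at 6 h and 8.27 and 9.66 at 24 h, up from 5.51 on both arrays at 0 h. Its 24 h arrays lay 1.39 apart, and the difference of -1.25 (SE 0.55, 95% interval -2.50 to 0.00) was not called. Ifng, at 10.93 and 11.37 against 11.01 and 11.49, had an interval of -0.85 to 1.05, and Il17a, at 7.58 and 7.97 against 7.66 and 7.81, one of -0.33 to 0.24. Il17f read 8.72 and 9.25 against 8.33 and 8.77 (difference -0.44, adjusted p = 0.26, or 0.038 with the block). Of 21 activation markers 2 were called higher and 2 lower, again near the shares of all genes. Lag3 (1.02) and Ctla4 (0.73) rose, and Tnfrsf9 (-0.999) and Tigit (-0.73) fell. Cd69, at 13.41 and 13.91 against 12.75 and 13.28, was called only with the block (adjusted p = 0.041). Each of the 4 called markers lost its call without 1 array at least: Lag3 without the unmarked 24 h array, and the other three without the 6 h array marked Rep.

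Genes of the resting T cell moved in both directions. Of 25 quiescence and naive cell genes 4 rose and 4 fell. Beside this and the other counts of this paragraph stand 8.47% of all genes called higher and 6.57% lower. Igfbp4 and Dapl1, both abundant in naive T cells, read 10.90 and 10.32 against 12.78 and 12.88, and 11.25 and 11.85 against 13.67 and 13.55 (differences 2.23 and 2.07). Lef1 (0.46) and Rasgrp2 (0.996) rose also, and Klf6, Klf4, Tob1 and Ccr7 fell. Igfbp4 and Dapl1 were called whichever array was left out, whereas the falls went from 4 to 0 without the unmarked 24 h array or without the 6 h array marked Rep. Il7r, the IL-7 receptor chain, went from 14.16 and 14.14 at 0 h to 10.82 and 11.11 at 6 h and 12.30 and 12.04 at 24 h, with an adjusted p of 0.052 for the last step. The GIMAP genes, lymphocyte GTPases of T cell survival, had 5 of 8 called higher, led by Gimap7 at 9.72 and 9.67 against 11.34 and 10.94. Only Gimap7 was called in every fit without one array. Of 15 adhesion genes 6 rose and 2 fell. The integrin beta chains Itgb3 (9.62 and 9.82 against 11.56 and 11.50) and Itgb7 (9.91 and 9.72 against 11.45 and 11.66) rose by 1.80 and 1.74, with SEs of 0.14. Icam1 and Itgav fell by 0.55 and 0.56 on the log2 scale, and both calls were lost without the unmarked 24 h array or the 6 h array marked Rep. Of 15 genes of the receptor complex and its kinases, Cd3d, Cd3g, Cd4, Vav1 and Plcg1 rose and Malt1 (-0.74), Zap70 (-0.48) and Bcl10 (-0.40) fell. The 5 rises came down to 1 without the unmarked 24 h array or without the 6 h array marked Rep.

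Of 21 glycolysis genes 2 were called higher and 1 lower, and of 22 pentose phosphate and TCA cycle genes 3 higher and 1 lower. Some single enzymes moved clearly. Lipid and lysosomal lists had a larger share of calls. Among all genes 8.47% were called higher and 6.57% lower. Pdk1, the kinase that holds back pyruvate dehydrogenase, read 9.60 and 9.31 against 11.04 and 10.99 (difference 1.56, SE 0.12, adjusted p = 0.00030). The glycolytic genes Aldoc (1.72) and Pfkm (1.07) rose and the lactate carrier gene Slc16a1 fell (-0.61), and the other 18 of that list were not called. Of 16 genes of sterol efflux and fatty acid synthesis 5 rose and 2 fell. The desaturases and elongases Scd2 (1.36), Scd1 (0.97), Elovl6 (0.87), Fads1 (0.65) and Elovl5 (0.59) rose. Acaca (-0.94) and Fasn (-0.52), which make the saturated chain, fell. Scd2 read 10.91 and 11.30 against 12.44 and 12.49, and Acaca 11.32 and 11.42 against 10.36 and 10.50. Of 20 cholesterol genes 2 rose and 5 fell, among them Dhcr7 (0.97) and Hmgcs1 (-0.74). Lysosomal and autophagy genes had 7 of 25 higher and 2 lower, with the proton pump subunit Atp6v0d1 at 10.78 and 10.81 against 11.55 and 11.69, and the lysosomal master factor Tfeb at 9.18 and 9.17 against 9.96 and 9.83. Of 36 proteasome genes 4 rose, 3 of which (Psmb8, Psmb9 and Psmb10) encode the catalytic subunits of the immunoproteasome, and Psme3 fell. Of the genes of this paragraph, Slc16a1, Scd1, Elovl6, Elovl5, Hmgcs1, Psmb10 and Psme3 were among those lost in at least 2 of the 4 fits without an array, and the lysosomal rises came down to 3 without the 6 h array marked Rep.

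PP2A has a scaffold, a catalytic and a regulatory subunit, and regulators that methylate it or inhibit it. Of 30 such genes 5 rose and 3 fell, beside 8.47% of all genes called higher and 6.57% lower. The list's median difference was -0.05, so it did not move as a whole. Ppp2ca, whose product the transgene supplies, read 13.90 and 13.88 at 0 h, 13.80 and 13.69 at 6 h and 13.86 and 13.76 at 24 h. Its difference of 0.07 (SE 0.08, 95% interval -0.12 to 0.25) was not called, and the 2 times overlapped. The other catalytic gene Ppp2cb (-0.25) and the scaffold gene Ppp2r1a (-0.12) were not called, although Ppp2cb was with the block (adjusted p = 0.041). Ppp2r5c, a regulatory subunit of the B56 family, read 11.21 and 11.22 against 11.75 and 11.77 (difference 0.54, SE 0.07, adjusted p = 0.0018). Lcmt1, which methylates the catalytic subunit, rose by 0.63 and Igbp1, its alpha4 chaperone, by 0.48. The largest rises in the list were those of 2 inhibitors. Mastl, which blocks PP2A with B55 during mitosis, read 5.92 and 5.92 against 9.83 and 7.95 (difference 2.97, SE 0.52), and Cip2a, an inhibitor of PP2A, rose by 2.07. Both had the gap between 24 h arrays seen in mitosis genes, and Cip2a was called in only 1 of the fits without an array, that without the 24 h array marked Rep. Other genes of inhibitors or regulators were not called: Set (-0.48, adjusted p = 0.11, or 0.028 with the block), Arpp19 (-0.17), Ensa (-0.13), Tiprl (-0.11) and the methylesterase gene Ppme1 (-0.04). The regulatory genes Ppp2r3a (-1.38) and Ppp2r2a (-0.30) and the ubiquitin ligase gene Mid1, whose product turns over PP2A, fell. Mid1 read 10.22 and 10.30 against 9.71 and 9.74. None of these 3 falls was called without the 6 h array marked Rep, and Igbp1 was not either. Nova1, a neuronal splicing factor gene, read 10.28 and 10.03 against 10.46 and 11.09 on one probe set and 9.31 and 9.51 against 9.80 and 9.72 on another. Neither was called. The WT arrays of 6 h and 24 h read only 5.30 to 6.06 on these probe sets, near the lower quartile of 5.81.

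No interferon-stimulated gene or chemokine gene was called, although many stood lower on both 24 h arrays. Of 23 interferon-stimulated genes, 21 had both 24 h arrays below both 6 h arrays, against 29.3% of all genes, and the median was -0.65. Rsad2, the antiviral enzyme viperin, read 12.65 and 11.97 at 6 h and 10.24 and 9.59 at 24 h (difference -2.40, SE 1.07, adjusted p = 0.19, or 0.032 with the block). In the fit of only these 4 arrays 9 of the 23 were called lower, and 5 in a fit without the 3 WT arrays marked Rep. Replicate WT arrays at 6 and 24 h differed from each other by a root mean square of 0.34 over all probe sets, against 0.23 and 0.26 in the transgenic groups. Of 16 chemokine genes none was called (median -0.49), but 4 were called lower in the fit of these 4 arrays and 5 without the 3 WT arrays marked Rep. Cxcl10 at 13.51 and 12.85 against 11.73 and 11.13 had an adjusted p of 0.12.

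No probe set passed the test of whether the change from 6 h to 24 h differed between transgenic and WT cells. Of 23410 differences of differences, limma called none after adjustment, and none in any alternative fit. An unadjusted p under 0.05 was found for 488 (2.08%), below the 5% expected if no probe set differed. The smallest adjusted p was 0.999995. In WT, 1753 probe sets (7.49%) were called higher and 1371 (5.86%) lower. Of the probe sets called higher in transgenic cells, 80.4% were called higher in WT, which is 84.7% of the WT list. Of those called lower, 67.8% were, which is 74.3% of the WT list, and none was called in opposite directions. The transgenic and WT comparisons share no array but share the fit. This does not show that the genotypes respond alike, since the 95% interval of a difference of differences had a median half-width of 0.39 among called probe sets. For Tcf19 the interval was -0.85 to 1.12, for Orc1 -0.97 to 0.50 and for Bub1 -2.41 to 1.90. Replication genes had a median difference of 1.38 in transgenic cells and 1.56 in WT, and mitosis genes 2.05 and 2.21. Ribosome biogenesis had -0.59 and -0.40. The 5 largest moderated statistics, given as values only, belonged to Neto1, Tmem184a, Mir224, Igbp1b and Mir15b. Mir15b differed by 0.71 in transgenic cells and -0.13 in WT. Igbp1b, related to the PP2A chaperone gene Igbp1, differed by -0.19 and 0.40. It lay below the lower quartile of the arrays, at 5.03 to 5.50 on the 8 stimulated arrays. Neto1 (0.11 and -0.45) and Mir224 (0.28 and -0.31) lay below it as well, at 4.70 to 5.20 and 4.43 to 4.92. Tmem184a differed by -0.40 and 0.14, at 6.35 to 6.93.

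**Figure D5:**
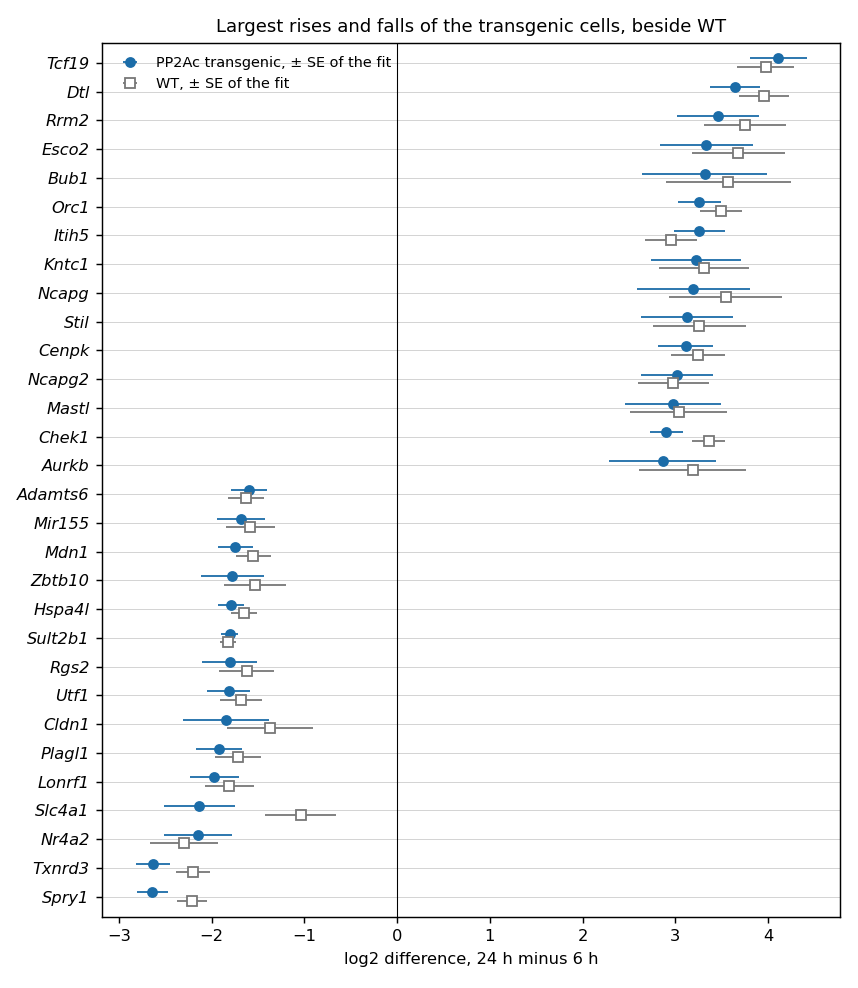
Log2 difference, 24 h minus 6 h (horizontal axis), of the 15 largest rises and the 15 largest falls of the transgenic cells (vertical axis), with the WT difference of the same gene; circles are transgenic, squares WT, and bars are 1 SE of the fit on 2 arrays against 2. The genes were chosen by the transgenic values, and every WT value lies on the same side of 0, from Tcf19 (4.11 and 3.97) to Spry1 (-2.64 and -2.21).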

How the data were processed

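The 12 one-colour arrays were hybridised with biotin-labelled cDNA, and the authors deposited their values on a log2 scale, one for each probe set. Steps of summary and normalisation before deposit remain not given in the sources used here. Array medians spanned 0.11, so the values were quantile normalised over all 28853 rows. Names came from the platform annotation, updated by Entrez number to RefSeq (GRCm38.p6): 21789 probe sets had 1 symbol, 1621 several and 5443 none, and 91 single symbols were not found in RefSeq. The 23410 probe sets with a symbol were fitted with limma 3.58.1 in R 4.3.3 as 6 group means (6 residual and 3.05 prior degrees of freedom), with contrasts for transgenic cells, WT cells and their difference. The procedure was tested on simulated data. Lists use 1 probe set per gene, the one with the highest mean. Members of the comparison and the 59 lists were chosen with earlier results of these data known. The rule for names took the 15 largest called differences in each direction without overlap (1 probe set per gene, no predicted genes), up to 5 members of smallest p per list with called members against the majority, a fixed set of genes, and the 5 largest statistics between genotypes. Other list members are examples within their list, chosen after their values were seen, as was the miR-17 cluster. Arrays with the same mark deviated together (all 15 correlations of deviations positive, 0.14 to 0.59), and the mark was therefore also fitted as a block. The other alternatives were deposited values without further normalisation, centring on the median, all rows, 1 probe set per gene, omission of the 40% dimmest probe sets, trended and robust moderation, array weights, only the groups compared, a minimum of 2-fold, and omission of each array by itself. A fit that omits the 3 WT arrays marked Rep was added after marker levels had been seen. The number of arrays limits the precision. Tables and plots were made with pandas 2.3.3, matplotlib 3.10.9 and numpy 2.4.6 under Python 3.11.15.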

Additional observations from a re-analysis of the deposited data

How the results depend on the processing

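No called direction of a named gene turned in any fit. Against a minimum change of 2-fold, 10 probe sets passed higher and 3 lower, in place of 1846 and 1502. Leaving out 1 of the 4 arrays gave 829 to 1509 higher and 526 to 972 lower. With the mark Rep as a replicate block the counts were 2332 and 2182, and the calls of all 210 named probe sets held. With values as deposited they were 1945 and 1396, with median centring 1617 and 1303, and with only the 4 arrays 1347 and 1078. Of the 210 named calls, 46 were lost in the fit of 4 arrays, 20 without the 3 WT arrays marked Rep, 14 with median centring and 10 with deposited values. When single arrays were left out, 54 to 94 were lost, and 105 held in all 4 such fits. The difference between genotypes gave 0 calls in every alternative. Some values near 0 turned sign when single arrays were left out. Gzmb, not called, lay between -0.23 and 1.60. The lowest and highest list medians were -0.18 and 0.11 for Th17 genes, -0.20 and 0.034 for regulatory and follicular genes, and -0.18 and 0.045 for quiescence genes. They were -0.73 and 0.18 for ATF4 targets, -0.46 and 0.023 for amino acid transporters, -0.0092 and 0.40 for GBP and IRG genes, and -0.16 and 0.10 for monocyte markers. Regulatory and follicular genes stood at 0.024 in the deposited values. Within the set marked Rep, cytotoxic genes stood at 0.017 and monocyte markers at 0.086. The cause of these shifts was not tested.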

Other observations

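Some gene groups beyond the lists led with above were also counted between 6 h and 24 h in transgenic cells. Over all genes 8.47% were called higher and 6.57% lower. Of 34 genes of the respiratory chain and ATP synthase, Ndufv1 (0.33) and Ndufb5 (0.30) were called higher and none lower, and the median was 0.08. Neither call held without the unmarked 24 h array or without the 6 h array marked Rep. Of 33 mitochondrial ribosomal protein genes 2 rose, Mrpl4 (1.04) and Mrpl18 (0.69), and 5 fell by 0.37 to 0.53 on the log2 scale. Mrpl4 read 10.90 and 10.48 at 6 h and 11.76 and 11.70 at 24 h, against the trend of its list, whose median was -0.18. Of 23 SR and hnRNP splicing factors Hnrnpc (-0.58), Hnrnpr (-0.42) and Srsf5 (-0.39) fell. Among 21 apoptosis and p53 target genes 5 fell, led by Gadd45b (-1.21), Aen (-0.95) and Trp53inp1 (-0.86), and Sesn1 rose (0.75). Of the genes named in this paragraph, only Mrpl4, Hnrnpc, Gadd45b and Trp53inp1 kept their calls whichever array was left out.

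Of 17 amino acid transporter genes the lysosomal carriers Slc38a9 (0.49) and Slc36a1 (0.74), which report amino acids to mTORC1, rose, and Slc7a6 (-0.38) fell. Slc7a6 was lost whichever array was left out, and Slc36a1 without the 6 h array marked Rep. Slc38a9 read 9.91 and 9.89 at 6 h and 10.34 and 10.42 at 24 h. Slc7a1, at 12.48 and 13.11 against 11.71 and 12.14, was called lower only with the replicate block (adjusted p = 0.0026). Of 14 regulatory and follicular T cell genes none was called, with Foxp3 at -0.40 and Bcl6 at -0.45. Sesn2, a stress gene, differed between replicates more than between times: it read 9.83 and 11.82 at 6 h and 8.84 and 10.77 at 24 h.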
